A study of Mus musculus with 4 samples.

Results

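Mature olfactory sensory neurons of the dorsal zone were selected from single-cell RNA sequencing of CD-1 mouse olfactory epithelium by 3 marker genes. A cell was taken as mature when it held at least 3 unique molecular identifiers (UMIs, each standing for 1 captured RNA molecule) of Omp, the olfactory marker protein of finished neurons, and at most 2 of Gap43, a growth cone protein of immature neurons. It was taken as dorsal when it also held at least 3 UMIs of Nqo1, an NAD(P)H quinone oxidoreductase of dorsal-zone neurons. The libraries held 9110 cells that showed 500 genes or more and drew no more than 10% of their UMIs from mitochondrial genes. Of these, 1764 passed the mature gate and 678 (7.44% of all) were dorsal. By library the dorsal cells numbered 170 (P0), 121 (P3), 146 (P7) and 241 (P21), where P is the postnatal day. They were set against 710 mature cells with no Nqo1 UMI and at least 2000 UMIs, here called Nqo1-zero cells, of which 92, 106, 119 and 393 came from P0, P3, P7 and P21.

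The 4 libraries were 1 per age, all from outbred CD-1 mice for which no treatment or genotype is named. How many animals went into each is not given in the sources used here. Cells were freed with papain and loaded as sorted samples. The gate of the sort is not given either, and it can set shares of cells. Median depth was 4272 to 5622 UMIs in dorsal cells and 4069 to 5212.5 in Nqo1-zero cells, and each library summed to 695270 to 1099964 UMIs over its dorsal cells and to 456049 to 1937582 over its Nqo1-zero cells. The P0 and P3 libraries shared 68 cell barcodes. In all 13 shared pairs with an odorant receptor call in both libraries the receptor was the same, so some cells of these libraries may be 1 cell counted in both. Other pairs of libraries shared 1 to 9 barcodes. Only 0 to 3 of these per pair of libraries had a receptor call in both, and none of those calls was the same. Between 2 and 4 dorsal cells per library carried a shared barcode. Counts of genes by zone and by receptor class, the dorsal share and the class I difference were also taken without such cells. Counts of cells led by single receptors, also those followed from P0 and P3 to later ages, include them.

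The olfactory epithelium is divided into zones, and each sensory neuron expresses 1 odorant receptor gene from among those its zone permits. Dorsal neurons send axons to the dorsal olfactory bulb and are marked by Nqo1 and by Acsm4, a medium-chain acyl-CoA synthetase, whereas ventral neurons carry Ncam2, an adhesion molecule also called OCAM, and Nrp2, a receptor of axon-repelling semaphorins. Class I receptors, encoded in a single cluster, belong largely to dorsal neurons, while class II receptors, the larger group, occur in both zones.

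The promoters of the genes that mark the dorsal cells are shown because Acsm4, Nqo1 and Nqo1's neighbour Nob1 were all high in them. RefSeq (GRCm38.p6) gave a promoter, from 250 bases before to 50 after the start, for 17 of the 25 genes searched, which were Nqo1 and the 24 genes named in the comparison by zone. Both strands were searched for TGACNNNGC, the core of the antioxidant response element through which Nqo1 is classically induced, for TCCCNNGGG, the core bound by the olfactory Ebf factors, for TTGGCA, a half-site of the nuclear factor I family, and for TAATTA, a homeodomain core. Capitals mark every match. Acsm4 lies at chr7:119689776-119690075 (plus strand), Nqo1 at chr8:107403156-107403455 and Nob1 at chr8:107424989-107425288 (both minus strand).
Acsm4: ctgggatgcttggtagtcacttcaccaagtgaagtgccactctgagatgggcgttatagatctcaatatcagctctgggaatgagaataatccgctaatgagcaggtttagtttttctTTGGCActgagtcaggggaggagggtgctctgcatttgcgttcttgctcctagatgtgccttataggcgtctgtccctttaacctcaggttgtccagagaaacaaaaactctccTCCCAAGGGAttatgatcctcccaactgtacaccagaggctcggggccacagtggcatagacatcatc
Nqo1: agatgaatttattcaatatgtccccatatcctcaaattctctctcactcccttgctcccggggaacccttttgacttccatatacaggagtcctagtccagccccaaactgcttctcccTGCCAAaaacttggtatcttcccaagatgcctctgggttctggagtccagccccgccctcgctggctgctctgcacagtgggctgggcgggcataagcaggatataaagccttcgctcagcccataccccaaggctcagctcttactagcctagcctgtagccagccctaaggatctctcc
Nob1: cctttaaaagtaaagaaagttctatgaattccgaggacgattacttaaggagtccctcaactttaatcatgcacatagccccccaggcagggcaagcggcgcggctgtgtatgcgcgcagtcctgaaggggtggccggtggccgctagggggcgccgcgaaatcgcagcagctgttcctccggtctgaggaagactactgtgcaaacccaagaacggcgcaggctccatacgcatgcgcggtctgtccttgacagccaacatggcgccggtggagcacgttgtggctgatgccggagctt
The Acsm4 promoter held 1 half-site of nuclear factor I and the Ebf core, which reads as a match on each strand at overlapping positions. The Nqo1 promoter held 1 half-site of nuclear factor I, and the Nob1 promoter held none of the 4 motifs. Among the other genes with a promoter, Aspg held 1 TGACNNNGC, Papss2 1 TCCCNNGGG and Nfix 1 TAATTA, and the rest held no match. Among 32851 promoters of the same length, 14.1% held TTGGCA, 6.56% TCCCNNGGG, 12.4% TGACNNNGC and 5.29% TAATTA. A match is a run of letters and was not tested as a binding site.

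Nqo1, Omp and Gap43 chose the cells, so their levels are a description. The median dorsal cell held 16, 13, 12 and 12 Nqo1 UMIs in the P0, P3, P7 and P21 libraries, and the highest value was 85, in a P7 cell. Summed over dorsal cells, Nqo1 stood at 4853, 3561, 3388 and 3576 CPM in the same order, where CPM is a gene's UMIs scaled by the summed UMIs of the same cells and library. Omp stood at 3629, 4144, 5100 and 6294 CPM in dorsal cells and at 3789, 4394, 5242 and 6827 CPM in Nqo1-zero cells, so it was higher at each later age in both groups.

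The cells carried the dorsal marker that the gate did not use. Acsm4 stood at 1057, 916, 913 and 889 CPM in dorsal cells of P0, P3, P7 and P21 and at 83.3, 104, 132 and 64.0 CPM in Nqo1-zero cells, with no overlap. Its log2 fold change was 3.43 ± 0.11 (SE, 4 libraries, edgeR quasi-likelihood adjusted p = 1.25e-16). After each cell was thinned to 2000 UMIs, 72.2% to 82.4% of dorsal cells per library held an Acsm4 UMI (85.1% to 89.3% before thinning). The same share was 8.14% to 18.5% in Nqo1-zero cells (10.9% to 24.4% before). The ventral markers were low in dorsal cells. Ncam2 stood at 2.83, 5.75, 15.8 and 10.0 CPM in dorsal cells and at 72.4, 70.2, 104 and 64.0 CPM in Nqo1-zero cells (log2 -3.04 ± 0.24, adjusted p = 1.28e-09). Nrp2 stood at 12.7, 12.9, 10.5 and 7.27 CPM in dorsal cells and at 21.9, 86.4, 78.7 and 52.6 CPM in Nqo1-zero cells (log2 -2.44 ± 0.27, adjusted p = 3.81e-07), with the smallest gap at P0.

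Other zone genes graded with the amount of Nqo1. In the P0, P3, P7 and P21 libraries, Acsm4 was at 222, 415, 561 and 333 CPM in mature cells with 1 to 2 Nqo1 UMIs, at 686, 602, 723 and 676 CPM in those with 3 to 9, and at 1186, 1024, 1091 and 1003 CPM in those with 20 or more. Nfix, a nuclear factor I transcription factor, fell over the same bins, from 344, 304, 462 and 503 CPM with no Nqo1 to 22.9, 57.8, 86.8 and 56.0 CPM with 20 or more. Cells with fewer Nqo1 UMIs were also shallower (medians of 2546.5 to 2820 UMIs at 3 to 9 and 4738 to 8285 at 20 or more), and the part of depth in these gradients was not tested. Just outside the gate, cells with 2 Nqo1 UMIs (11, 16, 21 and 25 cells) held 265, 313, 545 and 523 CPM of Acsm4 and 217, 209, 230 and 161 CPM of Nfix. Just inside it, cells with 3 (6, 10, 9 and 25 cells) held 626, 849, 494 and 708 CPM of Acsm4 and 0, 26.5, 98.9 and 131 CPM of Nfix.

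**Figure D1:**
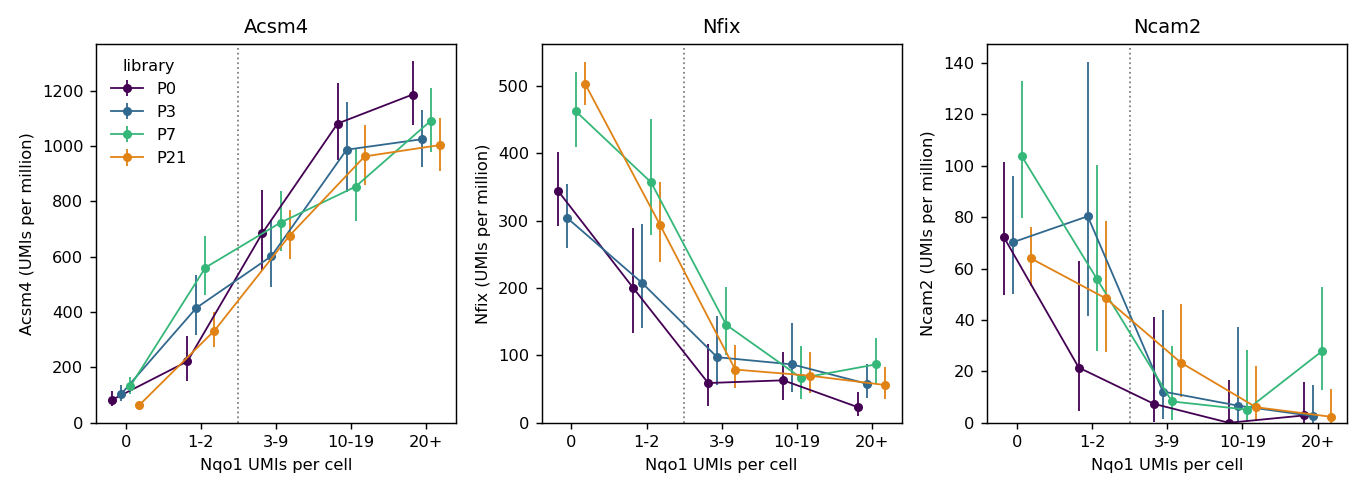
Levels in CPM of Acsm4, Nfix and Ncam2 (vertical axes, bars are exact 95% Poisson intervals for counting error) in mature-gate cells binned by their Nqo1 UMIs (horizontal axis), 1 line per library; the dotted line is the dorsal gate and the bin at 0 needs 2000 UMIs per cell. Acsm4 goes from between 64.0 and 132 CPM at 0 to between 1003 and 1186 CPM at 20 or more, while Nfix and Ncam2 are lower at 20 or more than at 0.

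Across the transcriptome, 231 of 8123 genes tested were higher in dorsal than in Nqo1-zero cells (2.84%) and 222 were lower (2.73%), by edgeR with the library as a block and Nqo1, Omp and Gap43 left out. Of 196 odorant and trace amine receptor genes tested, 169 were called, 95 of them higher and 74 lower. A receptor's UMIs come mainly from the few cells it leads, often all in the same group. The receptors' share of calls therefore cannot be read against that of other genes. Of 7927 genes other than receptors, 136 were higher and 148 lower. The median log2 fold change of all genes tested was -0.0032. Without the cells of shared barcodes 221 were higher and 204 lower. Without the P21 library, which holds the most cells of both groups, 123 were higher and 117 lower; without the P7 library 147 were lower. The block takes up differences in level between libraries. The spread the test uses is that of the difference between groups over the 4 libraries, which are 4 ages.

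The 12 genes that rose most, with the same sign in all 4 libraries and receptors left aside, were led by Acsm4. The others were 4932412D23Rik, Nob1, Fam19a4, Socs2, Dusp26, Hspa1a, Papss2, Zfp422, Aspg, Slc25a35 and Cradd. Fam19a4 was found mainly in dorsal cells led by a class I receptor (39 of 111 cells, as described below). Among cells led by a class II receptor it was found in 2 of 488 dorsal and 1 of 616 Nqo1-zero cells. Its place in this list is thus not a difference seen among class II cells. Socs2, a suppressor of cytokine signalling, stood at 409, 270, 332 and 225 CPM in dorsal cells and at 125, 128, 88.7 and 48.0 CPM in Nqo1-zero cells (log2 1.81 ± 0.13, adjusted p = 2.58e-10). Dusp26, a protein phosphatase, stood at 157, 138, 128 and 128 CPM against 50.4, 59.4, 38.5 and 29.9 CPM (log2 1.77 ± 0.15, adjusted p = 2.99e-09). In both genes every dorsal value was above every Nqo1-zero value. 4932412D23Rik was low, at 21.2 to 45.5 CPM in dorsal cells and 0 to 8.37 CPM in Nqo1-zero cells. Papss2, which makes the activated sulfate used in sulfation, had a log2 fold change of 1.67 ± 0.36, Aspg, an asparaginase, of 1.62 ± 0.34, and Slc25a35, a mitochondrial carrier, of 1.57 ± 0.31; none of these 3 passed the test without the P21 library (adjusted p = 0.268, 0.0848 and 0.106). Hspa1a, a heat shock protein (log2 1.74 ± 0.49, adjusted p = 0.0346), did not pass without P0 (adjusted p = 0.161) or without P7 (adjusted p = 0.0991). Zfp422, a zinc finger protein, rose by 1.63 ± 0.30 and Cradd, an adaptor of death signalling, by 1.35 ± 0.29. Neither passed when the mature gate required Gap43 at 0 (adjusted p = 0.0895 and 0.144). Hspa1a, Papss2, Aspg, Slc25a35 and Cradd did not pass with DESeq2.

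Nob1, an endonuclease of ribosome maturation, is Nqo1's neighbour. It stood at 86.3, 86.3, 88.2 and 106 CPM in dorsal cells and at 17.5, 34.2, 11.7 and 16.5 CPM in Nqo1-zero cells (log2 2.38 ± 0.19, adjusted p = 2.49e-09), with no overlap. In GENCODE M21 on mm10 it spans chr8:107412486-107425051 and Nqo1 spans chr8:107388225-107403206, both on the minus strand, so the end of Nob1 lies 9.279 kb before the start of Nqo1. The other tested genes near Nqo1 did not pass the test: Nfat5, 8.707 kb away on the other strand, had a log2 fold change of 0.010 ± 0.15, Wwp2 of 0.14 ± 0.28 and Rps26-ps1 of -0.33 ± 0.35. Thumpd1, which ends 0.527 kb from Acsm4, had a log2 fold change of 0.043 ± 0.19. Whether reads of Nqo1 were counted to Nob1 was not tested, since no source used here gives the counting rules.

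Among the genes lower in dorsal cells, 3 of the 4 nuclear factor I transcription factors fell. Nfix stood at 42.4, 73.4, 100 and 67.3 CPM in dorsal cells and at 344, 304, 462 and 503 CPM in Nqo1-zero cells (log2 -2.51 ± 0.12, adjusted p = 2.60e-13). Nfib stood at 3.64 to 14.5 CPM in dorsal cells and at no less than 46.0 CPM in Nqo1-zero cells (log2 -2.76 ± 0.29, adjusted p = 1.57e-07). Nfia was lower at log2 -2.21 ± 0.57 (adjusted p = 0.0170), from values of at most 4.24 CPM in dorsal cells. Nfic, the fourth member, had a log2 fold change of -0.35 ± 0.26 and did not pass. When only the dorsal cells led by a class II receptor were taken, Nfix was still low, at 49.5, 87.4, 123 and 77.8 CPM. It was lower again in dorsal cells led by a class I receptor, at 8.71, 20.3, 6.74 and 7.66 CPM.

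The other genes that fell most were mostly low in both groups. Aldh3b1, an aldehyde dehydrogenase, had 0 to 2.83 CPM in dorsal cells and 17.5 to 34.6 CPM in Nqo1-zero cells (log2 -3.94 ± 0.47). Cdh3, a cadherin, had 0 to 7.19 CPM against 4.64 to 34.2 CPM (log2 -2.64 ± 0.53). Slc16a7, a monocarboxylate transporter, had 1.44 to 5.66 CPM against 18 to 24.8 CPM (log2 -2.45 ± 0.41). Edn2 (an endothelin peptide), C130074G19Rik, Eva1c and Cit (a kinase of cell division) had log2 fold changes of -3.43 ± 0.76, -3.33 ± 0.45, -3.22 ± 0.54 and -2.73 ± 0.67. Gm4461, at log2 -5.39 ± 0.79, rested on 4 Nqo1-zero cells, 1 of which held 29.1% of its UMIs. Emx1, a homeobox gene, had no UMI in dorsal cells of any library and 0, 18, 45.2 and 0.516 CPM in Nqo1-zero cells. Avp, vasopressin, had 0 to 12.9 CPM in dorsal cells and 21.9, 3.60, 11.7 and 187 CPM in Nqo1-zero cells, highest in the P21 library. At P3 it was higher in dorsal cells, at 12.9 CPM. Edn2, Cit, Nfia, Emx1 and Avp did not pass with DESeq2.

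**Figure D2:**
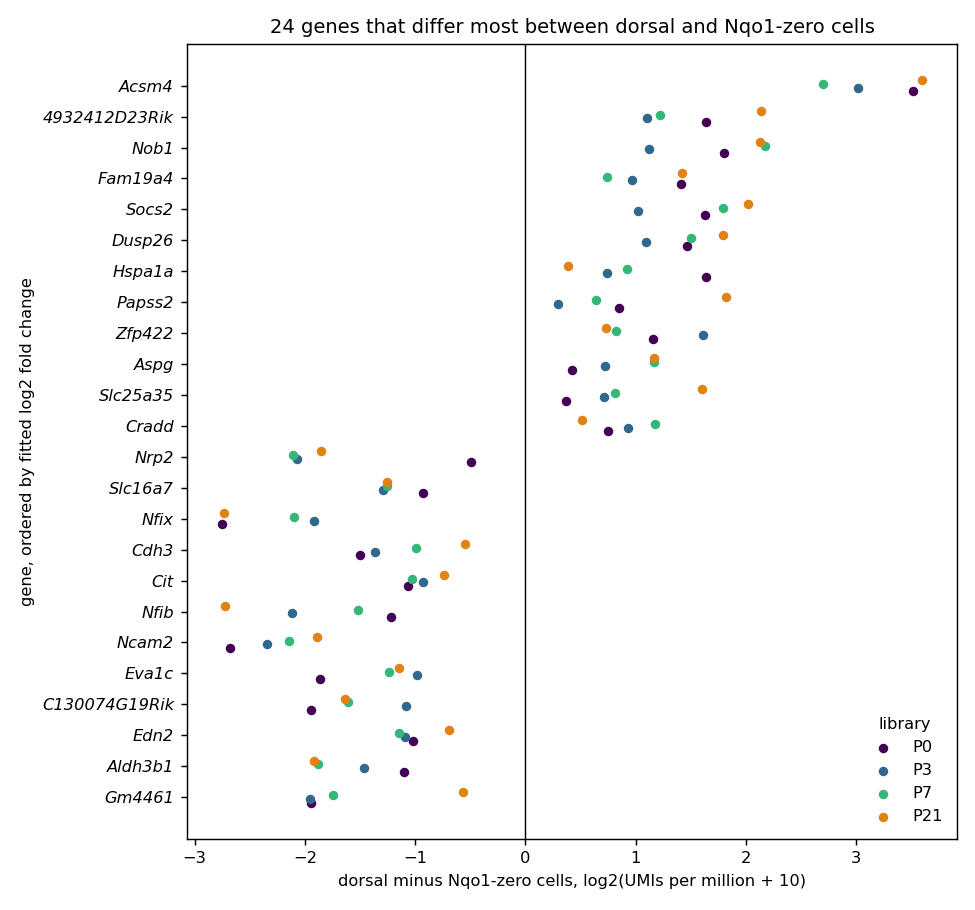
Difference between dorsal and Nqo1-zero cells, as log2(CPM + 10), in each of the 4 libraries (1 point per library) for the 12 genes that rose most and the 12 that fell most in the fit. Points of all 4 libraries lie on the same side of 0 for each gene, as the choice of these genes required, and Nrp2 is nearest to 0 at P0.

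Genes on the axon guidance and activity-dependent lists, which share Kirrel2 and Kirrel3, were called in both directions. Of 46 axon guidance and adhesion genes 27 were tested, of which 4 rose and 2 fell (list median log2 0.010), where 2.84% and 2.73% of all genes did. These shares, which include the receptors, are the background for the zone counts of each list that follows. With receptors left aside, 136 of 7927 genes rose and 148 fell. Kirrel2 and Kirrel3 are adhesion molecules that sort axons by receptor. Kirrel3 stood at 83.5, 77.7, 69.8 and 112 CPM in dorsal cells and at 26.3, 52.2, 18.4 and 64.5 CPM in Nqo1-zero cells (log2 1.04 ± 0.16, adjusted p = 5.85e-05). Kirrel2 stood at 136, 115, 144 and 407 CPM against 250.0, 227, 321 and 680 CPM (log2 -0.84 ± 0.08, adjusted p = 9.88e-08), lower in dorsal cells within each library. The ephrins Efna3 and Efna5 rose by 0.55 ± 0.07 and 0.54 ± 0.10, the receptor Epha5 fell by 0.55 ± 0.08 and Cntn4, a contactin, rose by 0.20 ± 0.06. Cntn4 did not pass with DESeq2, and the other 5 of the list did. Robo2, the Slit receptor of dorsal axons, rose by 0.78 ± 0.14, but not with cells thinned to 2000 UMIs (adjusted p = 0.0751). Of 10 activity-dependent genes tested Kirrel3 rose, and S100a5, Kirrel2 and Pcp4l1 fell. The list does not part genes that activity raises from genes that it lowers. S100a5, a calcium-binding protein of active neurons, stood at 8865, 11292, 10311 and 12118 CPM in dorsal cells and between 17614 and 18277 CPM in Nqo1-zero cells (log2 -0.72 ± 0.06, adjusted p = 1.29e-09).

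Of 11 neuropeptide and granule genes tested 2 rose and 2 fell (list median log2 -0.051), and 1 of these 4, Cartpt, also passed with DESeq2. Cartpt, the precursor of CART peptides, stood at 5926, 5244, 4185 and 3692 CPM in dorsal cells and at 3861, 3355, 1996 and 1219 CPM in Nqo1-zero cells (log2 1.03 ± 0.10, adjusted p = 4.04e-08). Pth2, another peptide precursor, rose by 0.58 ± 0.16 (adjusted p = 0.0369), though it was lower in dorsal cells at P3 and P7 and did not pass with DESeq2. Cpe, a peptide-processing carboxypeptidase, stood at 788, 889, 757 and 587 CPM in dorsal cells and at 1028, 896, 971 and 814 CPM in Nqo1-zero cells (log2 -0.27 ± 0.067, adjusted p = 0.0116). Calb2, calretinin, was named after its values were seen: 1386, 1673, 1591 and 1169 CPM against 441, 697, 598 and 600 CPM (log2 1.32 ± 0.08). Acss2, which makes acetyl-CoA from acetate, was the 1 gene of 12 acyl-CoA and fatty acid genes tested that rose, at log2 1.13 ± 0.12, and Fabp5, a fatty acid binding protein, was the 1 that fell, at 7.27 to 25.9 CPM against 9.29 to 88.2 CPM (adjusted p = 0.0444), and Acss2 alone of the pair passed with DESeq2.

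Of 24 targets of Nrf2, the factor that induces Nqo1 under oxidative stress, none was higher and 1 was lower (list median log2 0.099): Prdx1, a peroxiredoxin, stood at 908, 708, 615 and 524 CPM against 1498, 792, 824 and 884 CPM (log2 -0.50 ± 0.08). Nrf2's own gene, Nfe2l2, had a log2 fold change of -0.068 ± 0.085. None of 23 oxidative phosphorylation genes and none of 18 genes of receptor choice and trafficking passed with edgeR or DESeq2 (4 and 2 had an unadjusted edgeR p under 0.05), with list medians of 0.053 and -0.050. Of 20 odour transduction genes 3 rose and 2 fell, and 2 of these 5, Cnga2 and Calm2, also passed with DESeq2. The channel subunit Cnga2 rose by 0.27 ± 0.06, the transporter Slc12a2 by 0.47 ± 0.12 and Calm2, a calmodulin gene, by 0.28 ± 0.05, and the phosphodiesterases Pde1c and Pde4a fell by 0.35 ± 0.08 and 0.28 ± 0.07. Of 17 growth cone and neurite genes 4 rose, by 0.27 to 0.77, and none fell (list median log2 0.16, and 9 had an unadjusted edgeR p under 0.05). They were the stathmins Stmn1 and Stmn2 and the tubulins Tubb2a and Tubb2b, of which Stmn2 and Tubb2b also passed with DESeq2.

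Markers of other cells were low but not equal between groups. The 15 sustentacular markers summed to 64.5 to 250.3 CPM in dorsal cells and to 41.9 to 132 CPM in Nqo1-zero cells, and 10 stromal markers to 24.5 to 77.7 CPM and 33.0 to 517 CPM, the last at P3. Leukocyte markers summed to 6.59 to 115 CPM and 6.58 to 64.8 CPM, glial markers to 20.9 to 270.2 CPM and 23.7 to 124 CPM, and progenitor markers to 8.18 to 83.4 CPM and 11.7 to 93.6 CPM. Of the 3 sustentacular, 3 stromal, 3 progenitor, 1 leukocyte and 1 glial genes with enough UMIs to be tested by zone, none passed with edgeR or DESeq2, and 2, 2, 1, 0 and 1 of them had an unadjusted edgeR p under 0.05. Aldh1a7 of the sustentacular list and Foxd3 and Frzb of the glial list had no UMI in either group. Acta2, smooth muscle actin, did pass (log2 -3.15 ± 0.45), on a level of 484 CPM in Nqo1-zero cells at P3 and of at most 23.0 CPM elsewhere, and was not lower once the highest doublet scores were removed. The 10 immature neuron markers summed to 2511, 3118, 2559 and 2198 CPM in dorsal cells of P0, P3, P7 and P21. In Nqo1-zero cells they summed to 2528, 2835, 2468 and 1796 CPM, so the dorsal sum was higher at P3, P7 and P21. Of the 8 tested by zone Stmn2 was the 1 gene that passed, and it rose, while 5 had an unadjusted edgeR p under 0.05. The part of any of these cells in the zone differences was not tested.

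Receptors separated the groups although the gate did not use them. A cell was assigned a leading receptor when 1 receptor gene held at least 3 UMIs and more than any other. This gave 151, 107, 128 and 213 dorsal cells at P0, P3, P7 and P21, or 87.7% to 88.8% of them, and 83, 90, 100 and 364 Nqo1-zero cells. Class I receptors, taken as the receptor genes between Rrm1 and Dchs1 on chromosome 7 (mm10), led 19.2%, 18.7%, 25% and 14.1% of dorsal cells with a leading receptor, and 0%, 0%, 5% and 0.824% of Nqo1-zero cells. The mean difference was 17.8 percentage points ± 3.07 (SD, n = 4 libraries; two-sided exact permutation test p = 0.13, the smallest that 4 pairs allow), higher in dorsal cells in 4 of 4 libraries. Counts of 0 among 83 and 90 cells allow shares of up to 4.35% and 4.02% (exact binomial 95% limits, counting error only).

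Most single receptors led cells of 1 group. The receptors that led most dorsal cells were Olfr77 (14 cells), Olfr1176 (11 cells), Olfr1030 (9 cells), Olfr1406 (8 cells), the class I receptor Olfr653 (8 cells), Olfr1038-ps (7 cells), Olfr322 (7 cells), the class I receptor Olfr672 (6 cells), Olfr826 (6 cells) and Olfr959 (6 cells). Of these 10 receptors only Olfr959 also led Nqo1-zero cells, 2 of them, both at P7. The class I receptors next in number were Olfr68, with 5 dorsal cells, and Olfr550 and Olfr596, with 4 each. Of 35 receptors that led at least 5 cells of the dorsal and Nqo1-zero groups together, 22 were in dorsal cells in at least 80% of them, 9 in at most 20%, and 4 lay between. Olfr1437 was among the last, with 5 dorsal cells at P0 and P3 and 4 Nqo1-zero cells at P7 and P21. Receptors that led at least 2 dorsal and no Nqo1-zero cells at P0 and P3 led 86 cells of both groups at P7 and P21. Of these 86 cells 76 were dorsal (88.4%, exact 95% interval 79.7% to 94.3%). Receptors that led at least 2 Nqo1-zero and no dorsal cells at P0 and P3 led 42 later cells, none of them dorsal. The 6 receptors that led cells of both groups at P0 and P3 led 9 later cells, none of them dorsal. Cells of 1 library share their source, so these intervals cover counting error only.

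**Figure D3:**
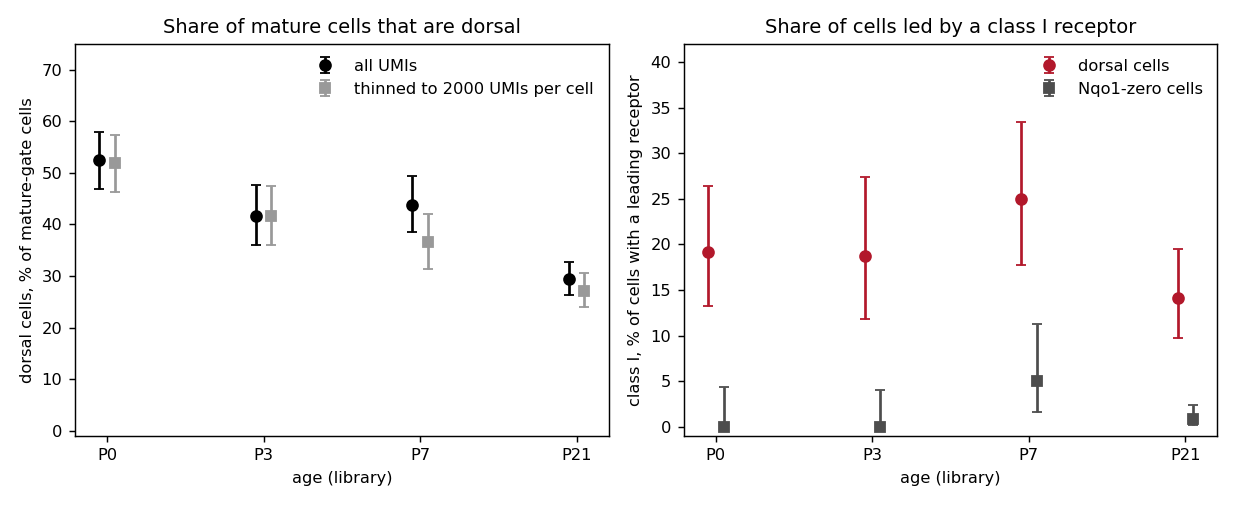
Left, dorsal cells as a percentage of mature-gate cells in each library, with all UMIs (black circles) and with cells thinned to 2000 UMIs (grey squares); right, cells led by a class I receptor as a percentage of cells with a leading receptor, in dorsal (red circles) and Nqo1-zero (grey squares) cells. Bars are exact 95% binomial intervals for counting error; the dorsal share is 52.5% at P0 and 29.5% at P21, and the class I share is higher in dorsal cells at every age.

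Within the dorsal cells, neurons led by a class I receptor (111 cells) differed from those led by a class II receptor (488 cells). Of 5656 genes other than receptors and the 3 gate genes, edgeR called 23 higher and 17 lower in class I cells (0.707% in both directions), in a comparison chosen after the data were seen, whose 5 genes of lowest p in each direction are named here. Fam19a4, a secreted protein also called Tafa4, stood at 122, 101, 135 and 138 CPM in class I cells of P0, P3, P7 and P21 and at 5.71, 1.90, 0 and 0 CPM in class II cells (log2 5.98 ± 0.51, adjusted p = 5.06e-12). It was found in 39 of 111 class I cells (35.1%) and in 2 of 488 class II cells (0.410%), at median depths of 4225 and 4696 UMIs. In the Nqo1-zero group it was found in 1 of 616 class II cells.

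Tppp3, a tubulin polymerization protein, stood at 505, 873, 290 and 475 CPM in class I and 211, 188, 174 and 97.5 CPM in class II cells, with no overlap (log2 1.67 ± 0.16). Cd55, a regulator of complement, had a log2 fold change of 1.67 ± 0.24, Ppa1, a pyrophosphatase, of 0.76 ± 0.11 and Pcp4l1 of 0.62 ± 0.098. Pcp4l1 was not higher at P3 and did not pass without P7 (adjusted p = 0.0773). In the other direction Nfix stood at 8.71, 20.3, 6.74 and 7.66 CPM in class I cells (log2 -3.02 ± 0.45, adjusted p = 1.57e-05). Bcl11b, a transcription factor known for its part in the choice between receptor classes, stood at 8.71, 0, 13.5 and 7.66 CPM in class I and at 51.4, 83.6, 86.0 and 44.1 CPM in class II cells (log2 -2.96 ± 0.51). Mslnl fell by 1.44 ± 0.18, Stoml3, a stomatin of olfactory cilia, by 0.42 ± 0.07 and Pcdh7, a protocadherin, by 3.03 ± 0.52. With DESeq2 Pcp4l1, Bcl11b and Pcdh7 did not pass (adjusted p = 0.0981, 0.132 and 0.0981), and with no replicate block Pcp4l1, Ppa1, Mslnl and Stoml3 did not. Acsm4 did not pass the test between classes, at 970.3 to 1167 CPM in class I and 867 to 1007 CPM in class II cells. Fewer genes passed without any 1 library (8 to 15 higher and 10 to 14 lower), the fewest without P21, and 16 and 14 passed without cells of shared barcodes.

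**Figure D4:**
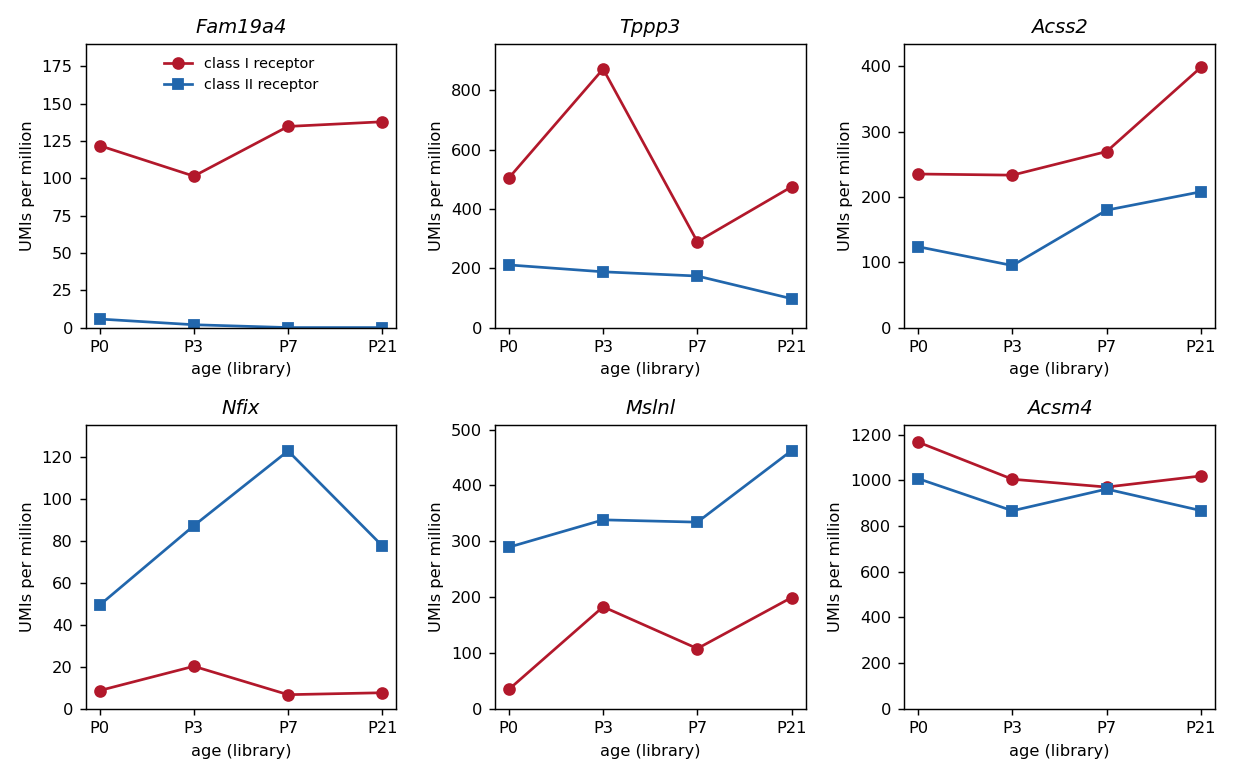
Levels in dorsal cells led by a class I receptor (red circles) and by a class II receptor (blue squares), in CPM, in the library of each age. Fam19a4, Tppp3 and Acss2 are higher and Nfix and Mslnl lower in class I cells in all 4 libraries, while Acsm4 did not pass the test.

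Dorsal cells made up 52.5%, 41.7%, 43.8% and 29.5% of mature-gate cells in the P0, P3, P7 and P21 libraries (exact 95% intervals 46.9% to 58.0%, 36.0% to 47.6%, 38.4% to 49.4% and 26.4% to 32.8%). P21 was thus 23.0 points below P0. With 1 library per age the difference has no replicate check, and age, litter and preparation cannot be told apart. Cells thinned to 2000 UMIs and gated again gave 51.9%, 41.6%, 36.6% and 27.2%.

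Between P0 and P21 the levels in dorsal cells were compared without a test, for the same reason. Of 3553 genes with at least 50 CPM and 20 UMIs at one of these ages, 131 were at least 2-fold higher at P21 (3.69%) and 95 at least 2-fold lower (2.67%) on the log2(CPM + 10) scale. Among these were 49 and 26 of the 88 receptors measured. Since a receptor's UMIs come mainly from the few cells it leads, the receptors' share cannot be read against that of other genes. Of 3465 genes other than receptors, 82 were higher and 69 lower. The largest ratios at P21 were those of Gm10320 (1.41 to 148 CPM), Gm8730, Tpm3-rs7, Dlg2.1, Pth2, Bcl2, Tmem181a and Coch. All of these but Coch were also higher at P21 than at P0 in Nqo1-zero cells (Gm10320 0 to 148 CPM), where Coch went from 39.5 to 22.7 CPM. Pth2 was at 72.2, 25.9, 61.9 and 357 CPM, so that it was high at P21 alone, and in Nqo1-zero cells it was at 41.7 and 201 CPM at P0 and P21. Bcl2, an inhibitor of cell death, was at 18.4, 5.75, 29.0 and 105 CPM, a P21 to P0 ratio of 5.73 (exact 95% interval for counts 3.22 to 11.1), and Nqo1-zero cells gave a ratio of 5.22. Coch is a marker of microvillar cells, and 49.1% of its dorsal UMIs came from 1 cell.

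The largest falls were those of Apoe, Fam183b, Ly6h, Dynlt1a, Sec61g, Cebpb, Dmkn and Gm1821. All were also lower at P21 than at P0 in Nqo1-zero cells, Apoe and Gm1821 the least (ratios 0.706 and 0.612). Fam183b, a ciliary gene, was at 525, 197, 111 and 44.5 CPM, and Nqo1-zero cells gave 452, 182, 137 and 56.8 CPM. Ly6h was at 218, 181, 169 and 23.6 CPM. Cebpb, a transcription factor, was at 69.3, 47.5, 54.0 and 9.09 CPM. Apoe, a glial marker here, drew 61.9% of its dorsal UMIs from 1 cell. Dynlt1a, a dynein light chain, was at 80.6, 4.31, 2.63 and 5.45 CPM and overlaps Tmem181a on the opposite strand, which was at 15.6, 54.7, 39.5 and 85.5 CPM. Both did the same in Nqo1-zero cells (Dynlt1a 74.6 to 3.10 CPM, Tmem181a 24.1 to 89.8 CPM). Whether the counting used the strand is not given in the sources used here, and reads shared between Dynlt1a and Tmem181a were not tested. Of genes that moved the same way at every step, Tspan7, a tetraspanin, was at 390.5, 535, 645 and 1023 CPM, Lima1, an actin binder, was at 19.8, 44.6, 68.5 and 82.7 CPM, and E330020D12Rik was at 60.8, 41.7, 30.3 and 12.7 CPM. Gm7658 and Erdr1 were 4.85 and 3.70 times as high at P21 as at P0. Tspan7, Lima1, E330020D12Rik, Gm7658 and Erdr1 moved the same way between P0 and P21 in Nqo1-zero cells.

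Lists were read with a milder rule, a 1.5-fold ratio whose count interval leaves out 1. Of measured genes, receptors included, 14.4% passed this rule upward and 11.9% downward. By it 5 of 18 odour transduction genes were higher at P21 and none was lower. The channel subunit Cnga4 was at 262, 306, 327 and 627 CPM in dorsal cells (ratio 2.40, interval 2.03 to 2.83), and Gnal, the odour G protein, Cnga2, Cngb1 and Gfy, a trafficking protein of olfactory cilia, had ratios of 1.51, 1.52, 1.91 and 1.70. Of 18 axon guidance and adhesion genes 7 were higher and 3 lower: Kirrel2 had a ratio of 3.00 (2.40 to 3.78) and Epha7 was at 15.6, 18.7, 15.8 and 59.1 CPM, while the protocadherin Pcdh10 had a ratio of 0.287 in dorsal cells and of 0.812 in Nqo1-zero cells. Among 15 genes of growth cones and neurites 6 fell short of their P0 level by this rule, one of them Marcksl1 at 291, 314, 195 and 90.9 CPM, and Crmp1 was higher. Of 23 oxidative phosphorylation genes 9 were lower and none higher: Ndufa1 was at 996, 614, 532 and 397 CPM (ratio 0.399, 0.353 to 0.450), and the list summed to 23680, 20194, 17507 and 15714 CPM in dorsal cells and to 24995, 18131, 17297 and 15681 CPM in Nqo1-zero cells. Cartpt had a ratio of 0.623 (0.597 to 0.651) in dorsal and 0.316 (0.297 to 0.336) in Nqo1-zero cells, whose difference could not be tested with 1 library per age. Acsm4 had a ratio of 0.841 (0.764 to 0.927).

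**Figure D5:**
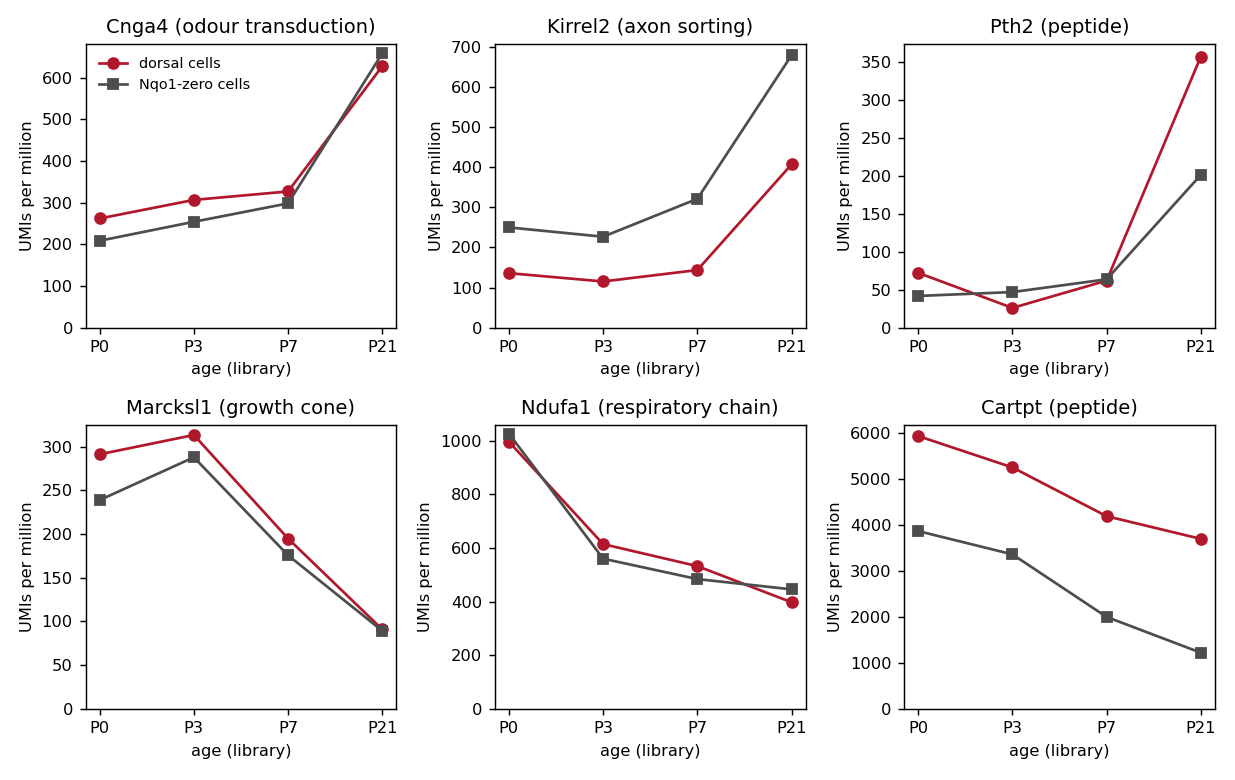
Levels in dorsal (red circles) and Nqo1-zero (grey squares) cells, in CPM, in the library of each age, for 6 genes of the lists in parentheses. Cnga4, Kirrel2 and Pth2 are highest and Marcksl1, Ndufa1 and Cartpt lowest at P21 in dorsal cells, and Cartpt lies higher in dorsal cells at every age.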

How the data were processed

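Olfactory epithelium of CD-1 mice was profiled with 10x 3' libraries of polyA RNA, per the labels. Each deposited table holds raw counts (whole UMIs for every gene in every cell), with no scaling applied by the authors. Per the submitters' processing notes, Cell Ranger 2.1.1, Seurat and the mm10 build were used. Counting settings and cell filters: not given in the sources used here. Cells were kept at 500 genes and 10% mitochondrial UMIs. Dorsal cells, lists and named genes were chosen with earlier results of these data known. UMIs were summed per library and group and tested with edgeR 4.0.16 (TMM, filterByExpr, quasi-likelihood, library as block, Benjamini-Hochberg over all genes, threshold 0.05; SEs from the F statistic) in R 4.3.3. Named genes are the 12 highest and 12 lowest log2 fold changes past the threshold with 1 sign in 4 libraries. Receptors, mitochondrial, ribosomal and haemoglobin genes, Xist and genes of the Y chromosome were left out. For age they are the 8 largest changes each way and up to 5 each way that moved in 1 direction at every step. List members are also named. The fit was tested on simulated data. Scrublet in scanpy 1.11.5 called 27, 33, 8 and 2 doublets at P0, P3, P7 and P21; none was removed in the results given, and an alternative removed the 58, 83, 25 and 16 highest scores. Depth was 6861044 to 17770838 UMIs per library, and intervals cover counting error only. The edgeR p-values rest on how the difference between groups varies over 4 libraries of different ages. Alternatives were DESeq2 1.42.0, other filters, gates, scalings and pseudocounts, thinned cells, no replicate block and each library left out, plus, after seeing the data, cells of shared barcodes left out. The block is the library, since both groups came from the same library.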

Additional observations from a re-analysis of the deposited data

Results flagged for a closer look

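Of 62 zone differences and shares read over the 4 libraries, 4 had a library far from the others, and chance alone sets apart about 1 in 20 groups. Values are dorsal minus Nqo1-zero cells in log2(CPM + 10). Acta2, smooth muscle actin, was at -3.90 at P3 and at 0.28, 0.53 and 0.053 at P0, P7 and P21; its P3 value rests on Nqo1-zero cells at 484 CPM. Gm4461 was at -0.57 at P21 and between -1.96 and -1.74 elsewhere. Nrp2, the ventral marker, was at -0.49 at P0 and between -2.11 and -1.86 elsewhere. Slc16a7 was at -0.93 at P0 and between -1.29 and -1.25 elsewhere.

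Cells led by a trace amine receptor, which no comparison took as a group of its own, held Acsm4 with little or no Nqo1. The mature gate held 16 such cells, led by Taar2 (4 cells), Taar3 (2 cells), Taar4 (3 cells), Taar6, Taar7b, Taar7f, Taar8b (1 cell each) and Taar9 (3 cells). None had 3 Nqo1 UMIs: 11 had none and 5 had 1 or 2. At P0, P3, P7 and P21, 3, 2, 0 and 4 of them were deep enough to be among the Nqo1-zero cells, so they also count in the Acsm4 level of that group. Acsm4 stood at 962 CPM in them (69 UMIs, exact 95% interval 749 to 1218, found in 13 cells), against 62.3 CPM (53.8 to 71.8) in Nqo1-zero cells led by a class II receptor and 917 CPM (879.6 to 956) in such dorsal cells. Nqo1 stood at 83.7 CPM (30.7 to 182) in the trace amine cells. Nfix stood at 55.8 CPM (15.2 to 143), against 476 CPM in class II Nqo1-zero cells and 83.3 CPM in class II dorsal cells. The cells were summed over 4 libraries, so the intervals cover counting error only.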

How the results depend on the processing

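The dorsal share fell from P0 to P21 by 23.0 to 26.9 points under the 8 gate, depth, denominator, doublet and barcode alternatives, and the class I difference lay between 17.1 and 19.3 points under 10. Counts of genes moved more. Genes higher and lower in dorsal cells numbered 79 and 50 with DESeq2, 394 and 467 with no filter on low counts, 17 and 25 with no replicate block, 147 and 138 with Gap43 at 0, and 107 and 108 with thinned cells (4785 genes tested). Leaving out 1 library gave 123 to 193 higher and 117 to 185 lower. Genes called kept their direction in each alternative that tested them, except 2 of 448 with the highest doublet scores removed, Acta2 among them (0.57). Without cells of shared barcodes, an alternative chosen after seeing the data, 423 of 449 were called again. Of 38 named genes, 12 did not pass with no replicate block (among them Cartpt, Kirrel2, Kirrel3, Robo2, S100a5, Pcp4l1, Epha5 and Prdx1) and 11 did not with DESeq2 (among them Edn2, Cit, Cradd, Nfia, Emx1 and Avp). For class I against class II within dorsal cells, DESeq2 gave 5 higher and 3 lower, no replicate block 3 and 3, and leaving out 1 library 8 to 15 and 10 to 14. Genes at least 2-fold higher at P21 numbered 66 with a pseudocount of 50 CPM, 277 with no filter, 68 from P7 and 219 with thinned cells; those lower numbered 45 with 50 CPM and 229 with no filter. From P7, Gm8730 turned to -0.18; Dynlt1a turned to 0.11 from P3 and 0.29 from P7, and Gm1821 to 0.035 and 0.20. The cause of these moves was not tested. Depth limits low genes: Hspa1a rests on 10 to 15 UMIs per library in dorsal cells.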

Other observations

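Besides the 111 dorsal cells led by a class I receptor, other mature cells led by one lay outside the Nqo1 gate. The Nqo1-zero group held 8 cells led by a class I receptor, 5 at P7 and 3 at P21: Olfr78 led 3, and Olfr597, Olfr655, Olfr570, Olfr632 and Olfr644 led 1 each. Of these 8 cells 6 held Acsm4 UMIs, and the summed level was 727 CPM (exact 95% interval 479 to 1058), against 62.3 CPM in the 616 class II cells of the same group. Their Nfix level rested on 1 UMI. Mature cells with 1 or 2 Nqo1 UMIs, which neither group used, were led by a class I receptor in 0%, 23.1%, 20% and 11.4% of receptor calls at P0, P3, P7 and P21. These were 0 of 35, 6 of 26, 8 of 40 and 10 of 88 cells. Mature cells with no Nqo1 and under 2000 UMIs, also outside both groups, held 0, 0, 1 and 3 cells led by a class I receptor.

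Fam19a4, which 2 of 488 dorsal class II cells held, was also found in 10 of 79 dorsal cells with no leading receptor (12.7%, exact 95% interval 6.24% to 22.0%) and in 4 of 73 such Nqo1-zero cells (5.48%, 1.51% to 13.4%). Their median depths were 3872 and 4486 UMIs. Calb2 stood at 363 CPM (237 to 531) in cells led by a trace amine receptor, against 1429 CPM in class II dorsal and 626 CPM in class II Nqo1-zero cells, and Cartpt stood at 7476 CPM in the trace amine cells, against 4825 and 1836 CPM.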
